A study of Schmidtea mediterranea with 11 samples.

Results

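The transcripts described here are those whose level was low in every library of bruli(RNAi) worms and in the library of Smed-H2B(RNAi) worms of the planarian Schmidtea mediterranea. On the scale of log2(TPM+1), a transcript was taken if the mean of the 3 control libraries was 2.5 or more, if the bruli library of each day lay more than 0.7 below the control library of its day, and if the Smed-H2B library lay more than 0.7 below the control mean. The transcripts were thus selected on their control, bruli and Smed-H2B levels, and those levels are described here without a test. TPM is the length-scaled share of a transcript in a library whose values sum to 1000000. Of 26562 transcripts in the table, 12625 reached the control level and 171 met the whole rule, which is 1.35% of them. A list of 15 transcripts, among them bruli itself (comp2592_c0_seq1), was set aside, and 14 of these met the rule. This left 157 transcripts, 1.24% of those at the control level. The mirror rule, with every difference above 0.7, was met by 12 transcripts, or 0.095%.

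Whole adult worms of the asexual Berlin-1 strain, a line raised from a single individual, were injected with double-stranded RNA on 3 consecutive days, and polyadenylated RNA was sequenced. Control worms received dsRNA of the gfp gene, which the worm lacks, bruli worms dsRNA of bruli, and mbnl worms dsRNAs of 4 mbnl genes together, and each of these groups has 1 library at each of days 20, 25 and 30. The Smed-H2B and Smedwi-2 knockdowns have 1 library each, for which no day is given. The number of worms in a library is not stated in the sources used here, nor is it stated whether the days are separate cohorts, so a p-value measures only the spread among these libraries.

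Planarians renew their tissues from neoblasts, the only dividing cells of the adult body, which give rise to postmitotic progeny and these to the differentiated cell types. bruli encodes an RNA-binding protein of the CELF/Bruno family that neoblasts need for their maintenance, and the mbnl genes encode muscleblind-like splicing regulators. Smed-H2B encodes a histone of the neoblasts and Smedwi-2 a Piwi protein whose loss is known to leave neoblasts unable to replace aged tissue. In whole-worm RNA, fewer cells of a type and less RNA per cell cannot be told apart.

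The sequences at hand that belong to the knockdown behind the rule, and to one of the transcripts found by it, are primers, and they are shown because the deposited table pairs transcripts with neither sequence nor gene name. The first pair is listed for bruli under its older name, bruno-like, and the second for Smed-rbfox-1, a gene of the set that the study also knocked down. Each is written 5′ to 3′ in lower case as the primer list gives it, and no letter is marked.
Smed-bruno-like primer 1: ctccactcgtaaattccagtcc
Smed-bruno-like primer 2: ctccctttggtcgttttaattg
Smed-rbfox-1 primer 1: gcctcacatgatacaaatcgaa
Smed-rbfox-1 primer 2: tcattcttgctgttgctacgtt
Each primer is 22 nt long, and their positions in the transcripts were not looked up.

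The dsRNAs lowered their targets unequally. bruli mRNA stood at 82.9 to 84.9 TPM in the control libraries and at 6.33, 3.33 and 4.27 TPM at days 20, 25 and 30 of its own knockdown. It was also low after Smed-H2B knockdown, at 19.4 TPM, and was at 82.4 TPM after Smedwi-2 knockdown and at 96.7 to 113 TPM after mbnl knockdown. In each mbnl library 3 of the 4 mbnl transcripts lay below every control library, while the other, mbnl-like-3, was at 1.62 to 2.81 TPM after mbnl knockdown and at 2.03 to 3.03 TPM in control. The transcript that a chart of the study labels smedwi-2 (comp756_c0_seq1, read from the picture) stood at 11.6 TPM in the Smedwi-2 library and at 108 to 115 TPM in control. The transcript of Smed-H2B was not identified in the tables used here, so it is not known whether it is among the 157.

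The 157 transcripts were in the median less abundant than all transcripts at the control level. Their mean control level ran from 4.84 to 440 TPM with a median of 13.8 TPM, against a median of 21.6 TPM for all 12625 transcripts at the control level. Of the 157, 11 were at 100 TPM or more, 87 at 10 to 100 TPM and 59 under 10 TPM. The control libraries of a transcript spread over less than 0.5 on the log2 scale for 138 of them, so the threshold of 0.7 was wider than the spread of control for most. The median of this spread was 0.22 for the 157 and 0.25 for all 12625, so it does not set the 157 apart. TPM keeps no read counts, and the counting error behind a level is therefore unknown.

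The median level of the 157 was 13.5, 14.2 and 14.6 TPM in control at days 20, 25 and 30. It was 5.88, 4.74 and 3.79 TPM after bruli knockdown on the same days and 4.70 TPM after Smed-H2B knockdown, all of which follow from the rule. In the libraries that the rule did not use, the median was 13.3, 15.4 and 14.7 TPM after mbnl knockdown and 15.5 TPM after Smedwi-2 knockdown, near the values of control.

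**Figure D1:**
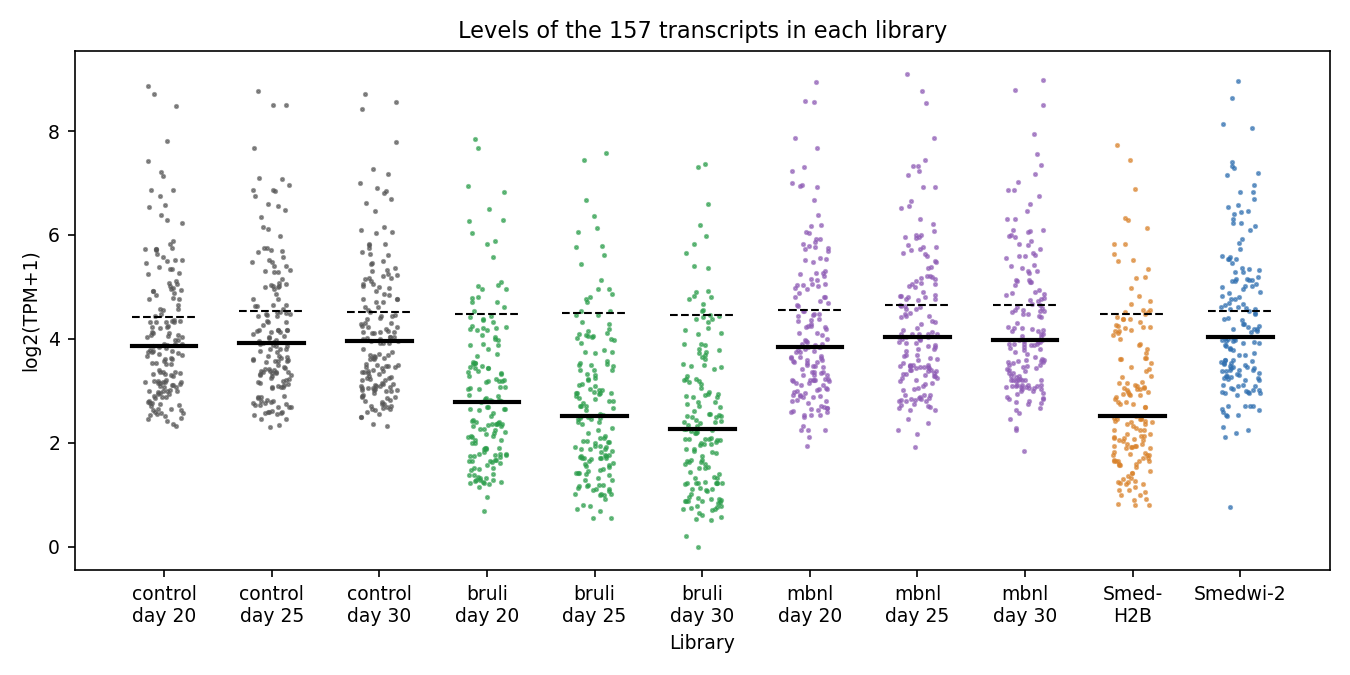
Levels of the 157 transcripts as log2(TPM+1) in each of 11 libraries; each point is a transcript, the solid bar is the median of the 157 and the dashed bar the median of all 12625 transcripts at the control level. The solid bar drops in the 3 bruli libraries and the Smed-H2B library, which chose the transcripts, and stays near control in the mbnl and Smedwi-2 libraries, while the dashed bar hardly moves.

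Summed over the 157, the level was 5125, 5094 and 5087 TPM in the control libraries of days 20, 25 and 30, about 0.51% of a library. It was 2313, 1914 and 1661 TPM after bruli knockdown and 2117 TPM after Smed-H2B knockdown. After mbnl knockdown the sum was 5388, 5798 and 5673 TPM and after Smedwi-2 knockdown 5873 TPM, each above the highest control library. The mbnl libraries were higher over the whole table too, by a median of 0.11 on the log2 scale, and the median mbnl difference of the 157 turned from 0.10 to -0.031 with median centring and to -0.028 with quantile normalization of all libraries, so the direction for mbnl depends on the scaling. Without the 3 most abundant transcripts the share of a library was 0.388% to 0.395% in control, 0.131% to 0.176% after bruli, 0.168% after Smed-H2B, 0.414% to 0.445% after mbnl and 0.469% after Smedwi-2 knockdown, so the order of the groups did not rest on those 3.

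The tables of the study annotate 9 of the 157 and leave 148 without a name. These tables list RNA-binding proteins, core spliceosome parts, splicing factors chosen for knockdown, and genes with stem cell-differential exons in both planarian and human. An annotated transcript was therefore likely to be of these kinds, and shares among the 9 do not describe the 148. Of the 9, 6 belong to the spliceosome. This enzyme complex removes introns from pre-mRNA and is built from small nuclear ribonucleoproteins (snRNPs), each with a ring of Sm proteins. All 9 met the rule and so were low after bruli and Smed-H2B knockdown by construction, and none passed the test of mbnl against control.

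Among proteins of the Sm ring and of the U1 snRNP, comp1056_c0_seq1 has SNRPF, comp1826_c0_seq1 has SNRPD1 and comp2444_c0_seq1 has SNRPA as its best human hit. SNRPF and SNRPD1 are Sm ring proteins in human cells and SNRPA is the U1 A protein. The SNRPF transcript was at 95.1, 95.3 and 96.6 TPM in control, 55.4, 54.3 and 41.2 TPM after bruli knockdown at days 20, 25 and 30, and 55.8 TPM after Smed-H2B knockdown. It was at 120, 100 and 95.5 TPM in the mbnl libraries and at 113 TPM after Smedwi-2 knockdown. Its mbnl and control libraries overlapped, and the log2 fold change of mbnl against control was 0.13 (standard error 0.10, adjusted p = 0.459, limma).

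The SNRPD1 transcript stood at 55.5, 61.7 and 55.6 TPM in control, at 31.8, 33.9 and 29.2 TPM after bruli knockdown and at 34.9 TPM after Smed-H2B knockdown. It stood at 72.0, 66.8 and 67.2 TPM in the mbnl libraries, each above each control library, and at 92.4 TPM after Smedwi-2 knockdown. The mbnl difference of 0.25 on the log2 scale (standard error 0.08) did not pass the test (adjusted p = 0.0963, limma). With a Smed-H2B difference of -0.70 this transcript was the nearest of all to that threshold from inside. The SNRPA transcript was at 30.0, 28.2 and 29.3 TPM in control and at 17.2, 15.5 and 11.9 TPM after bruli knockdown. It was at 16.3 TPM after Smed-H2B, 34.4, 34.8 and 38.8 TPM after mbnl and 35.6 TPM after Smedwi-2 knockdown, and its mbnl libraries also lay above all control libraries without passing the test (log2 fold change 0.29, standard error 0.12, adjusted p = 0.189, limma).

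Other parts of the spliceosome were represented by 3 transcripts known from their KEGG numbers. comp1928_c0_seq1 carries K12845, the number of SNU13, which binds U4 snRNA in the tri-snRNP. Its level was 52.4, 46.7 and 43.2 TPM in control, 26.8, 21.0 and 21.1 TPM after bruli knockdown, and 51.9, 62.8 and 58.2 TPM after mbnl knockdown. The single libraries gave 20.4 TPM for Smed-H2B and 45.1 TPM for Smedwi-2, the second within the range of control. comp2656_c0_seq1 carries K12834, the number of PHF5A, a subunit of the SF3b complex of the U2 snRNP. It was at 28.7, 26.1 and 26.1 TPM in control and at 17.1, 12.4 and 8.34 TPM after bruli knockdown, the steepest course among the 9. Smed-H2B knockdown gave 11.2 TPM, mbnl knockdown 28.7, 32.1 and 26.5 TPM and Smedwi-2 knockdown 33.8 TPM. comp4747_c0_seq1 carries K12852, the number of EFTUD2, a GTPase of the U5 snRNP. It was at 26.3, 24.3 and 26.2 TPM in control, 14.7, 12.5 and 12.2 TPM after bruli, 12.2 TPM after Smed-H2B, 26.9, 27.1 and 28.3 TPM after mbnl and 31.3 TPM after Smedwi-2 knockdown.

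The other 3 annotated transcripts are not core spliceosome members. Smed-rbfox-1 (comp6567_c0_seq1), whose best human hit RBFOX1 is a regulator of alternative splicing known from neurons and muscle, was at 16.3, 16.5 and 18.7 TPM in control and at 9.31, 9.59 and 8.12 TPM after bruli knockdown. It was at 7.40 TPM after Smed-H2B knockdown, at 17.7, 21.3 and 18.8 TPM after mbnl knockdown and at 14.4 TPM after Smedwi-2 knockdown, the last below each control library but well above the bruli libraries. comp10329_c0_seq1, with NUP35 as its best human hit, a nucleoporin of the nuclear pore, was at 8.73, 9.19 and 8.21 TPM in control and at 4.34, 4.65 and 4.42 TPM after bruli knockdown, with no deepening by day 30. It was at 3.35 TPM after Smed-H2B, 6.80, 9.46 and 8.79 TPM after mbnl and 10.6 TPM after Smedwi-2 knockdown. comp8569_c0_seq1, an RNA-binding protein with no human hit in the table, had control levels of 10.4 to 12.4 TPM, bruli levels of 4.75 to 5.94 TPM and a Smed-H2B level of 5.71 TPM. Its mbnl levels of 12.4, 14.2 and 8.65 TPM lay on both sides of control.

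**Figure D2:**
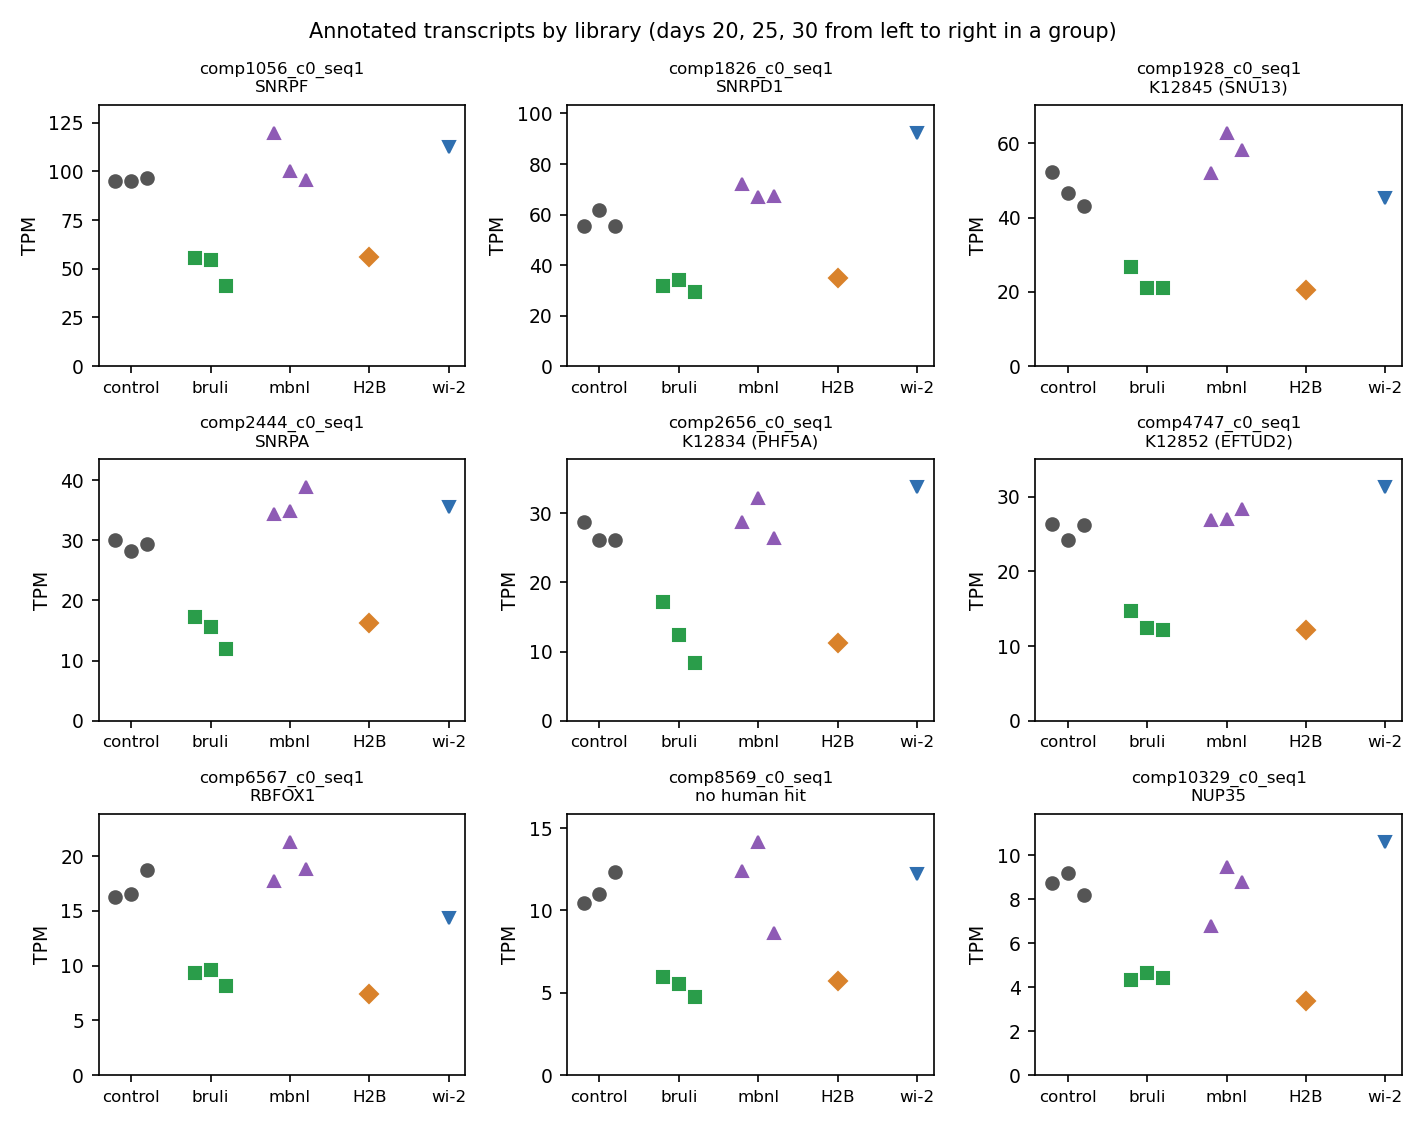
TPM of the 9 annotated transcripts, 1 panel each, with axes from 0; every point is 1 library, with days 20, 25 and 30 from left to right within control, bruli and mbnl, and 1 point each for Smed-H2B (H2B) and Smedwi-2 (wi-2). In each panel the bruli and Smed-H2B points lie below all control, mbnl and Smedwi-2 points; SNRPF, for example, was at 55.8 TPM after Smed-H2B and at 113 TPM after Smedwi-2 knockdown.

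The lists of RNA-binding proteins and spliceosome parts place these 9 among their relatives. Of 77 core spliceosome transcripts at the control level, 5 (6.49%) were in the set, against 1.24% of all transcripts. After Smed-H2B knockdown 22 of the 77 lay more than 0.7 below control, where 6.20% of all 12625 did. More than 0.7 above control were 0 of the 77, where 436 of the 12625 were, so this 0 is no clear departure. The median of the mean bruli difference over the 77 was -0.45 on the log2 scale, beside 0.00 for all transcripts at the control level, so the middle of the list was nearer to control than the rule asks. Of 15 transcripts whose best human hit has a name starting with SNRP or LSM, 3 (20%) were in the set, and of these SNRPF and SNRPD1 are Sm ring proteins and SNRPA is not. Of 15 SR and TRA2 splicing factors, 18 hnRNP and poly-C binding proteins and 57 RNA helicases, 0 were in the set. Nor were any of 3 DNA helicases or repair proteins and 12 translation or poly-A binding factors. Among the RNA helicases, 1 met the rule and was among the transcripts set aside. With 1.24% of all transcripts in the set, 0 is no clear departure in lists of these sizes. Of 16 neural-type RNA-binding proteins 1 (6.25%) was in the set, Smed-rbfox-1, and the medians of that list lay near control, at 0.06 for the mean bruli difference and 0.08 for Smed-H2B. The lists overlap, and these counts come from the contrasts that chose the transcripts.

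A feature that the rule did not use is where the RNA-binding proteins were expressed in sorted cells, which the study measured in other libraries. Among its RNA-binding proteins, 280 transcripts reached the control level, and 69 of these (24.6%) had a log2 level at least 2 higher in X1 cells, the dividing neoblasts, than in Xins cells, which survive irradiation and are differentiated. Of the 280, 230 were higher in X1 than in Xins cells by any amount. The set held 6 of the 280, namely those with SNRPF, SNRPD1, SNRPA, RBFOX1 and NUP35 as best hit and comp8569_c0_seq1, and all 6 were among the 69. The paper read splicing factors against the core spliceosome instead, and on that scale reported no X1 enrichment for Smed-rbfox-1. On the differentiated side were 40 RNA-binding protein transcripts, with a log2 level lower by 1 or more in X1 than in Xins cells. Of these 40, 0 were in the set, where 2.14% of the 280 were. At so low a share, 0 of 40 is no clear departure. The cut of 1 on this side is also looser than the cut of 2 on the neoblast side. Of 7 transcripts with a Piwi or germ granule protein as best hit, 3 met the rule, and these were among the listed transcripts that were set aside.

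The 148 transcripts without a name are known by the identifiers of the Dresden transcriptome assembly only. The most abundant was comp469_c0_seq1, with 466, 436 and 418 TPM in control and 230, 190 and 157 TPM after bruli knockdown. It was at 210 TPM after Smed-H2B, 494, 544 and 505 TPM after mbnl and 499 TPM after Smedwi-2 knockdown, so every mbnl library and the Smedwi-2 library lay above all control libraries. Its mbnl difference of 0.23 did not pass the test (standard error 0.10, adjusted p = 0.217, limma). The next, comp648_c0_seq1, was at 420, 362 and 376 TPM in control and at 122, 53.7 and 27.2 TPM after bruli knockdown. It was at 55.7 TPM after Smed-H2B knockdown, the lowest Smed-H2B difference of the set at -2.77, and at 374, 371 and 361 TPM after mbnl knockdown. Its Smedwi-2 level of 281 TPM lay below each control library, by 0.45 on the log2 scale from their mean.

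Differences from control after bruli knockdown, averaged over the days, ran from -3.36 to -0.78 on the log2 scale with a median of -1.27. They were -2 or less for 22 transcripts, between -2 and -1 for 95 and nearer to control than -1 for 40. The lowest was that of comp2548_c0_seq1, which was at 58.3, 93.8 and 67.8 TPM in control and at 3.99, 9.53 and 5.87 TPM after bruli knockdown. This transcript was at 24.4 TPM after Smed-H2B knockdown, about midway on the log2 scale between its bruli and control levels, at 59.2, 90.7 and 77.7 TPM after mbnl knockdown and at 113 TPM after Smedwi-2 knockdown. It was followed by comp2787_c0_seq1, with 74.1, 68.6 and 65.6 TPM in control, 12.0, 6.80 and 3.19 TPM after bruli knockdown, 21.3 TPM after Smed-H2B, 59.5, 60.2 and 63.0 TPM after mbnl and 83.4 TPM after Smedwi-2 knockdown. In both, the Smed-H2B level lay above every bruli library. The differences nearest to control were those of comp10250_c0_seq1 (-0.78) and comp11186_c0_seq1 (-0.79).

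At single days, 2.5% of the 12625 transcripts lay more than 0.7 below control after bruli knockdown at day 20, 5.22% at day 25 and 8.74% at day 30, and 6.20% did so after Smed-H2B knockdown. Day 20 was therefore the strictest condition of the rule. A further 160 transcripts met every other condition and missed only that of day 20, against 16 for day 25, 13 for day 30, 20 for Smed-H2B and 77 for the control level. Without the bruli library of day 20 in the rule the set would hold 317 transcripts, and without all libraries of that day 362. Just inside the day 20 threshold stood comp2145_c0_seq1 and the PHF5A transcript comp2656_c0_seq1, each at -0.71, and just outside comp8828_c0_seq1 and comp6912_c0_seq1, each at -0.70. At day 25 comp14660_c0_seq1 and comp9469_c0_seq1 were inside at -0.71, and comp3741_c0_seq1 (-0.69) and comp8094_c0_seq1 (-0.68) outside. At day 30 comp14660_c0_seq1 (-0.73) and comp11186_c0_seq1 (-0.74) were inside, and comp11868_c0_seq1 (-0.69) and comp14515_c0_seq1 (-0.68) outside. For Smed-H2B, the SNRPD1 transcript (-0.70) and comp16218_c0_seq1 (-0.72) were inside, and comp5609_c0_seq1 (-0.68) and comp7021_c0_seq1 (-0.66) outside. At the control level of 2.5, comp14537_c0_seq1 (2.54) and comp13263_c0_seq1 (2.55) were inside, and comp10941_c0_seq1 (2.496) and comp13890_c0_seq1 (2.49) outside.

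**Figure D3:**
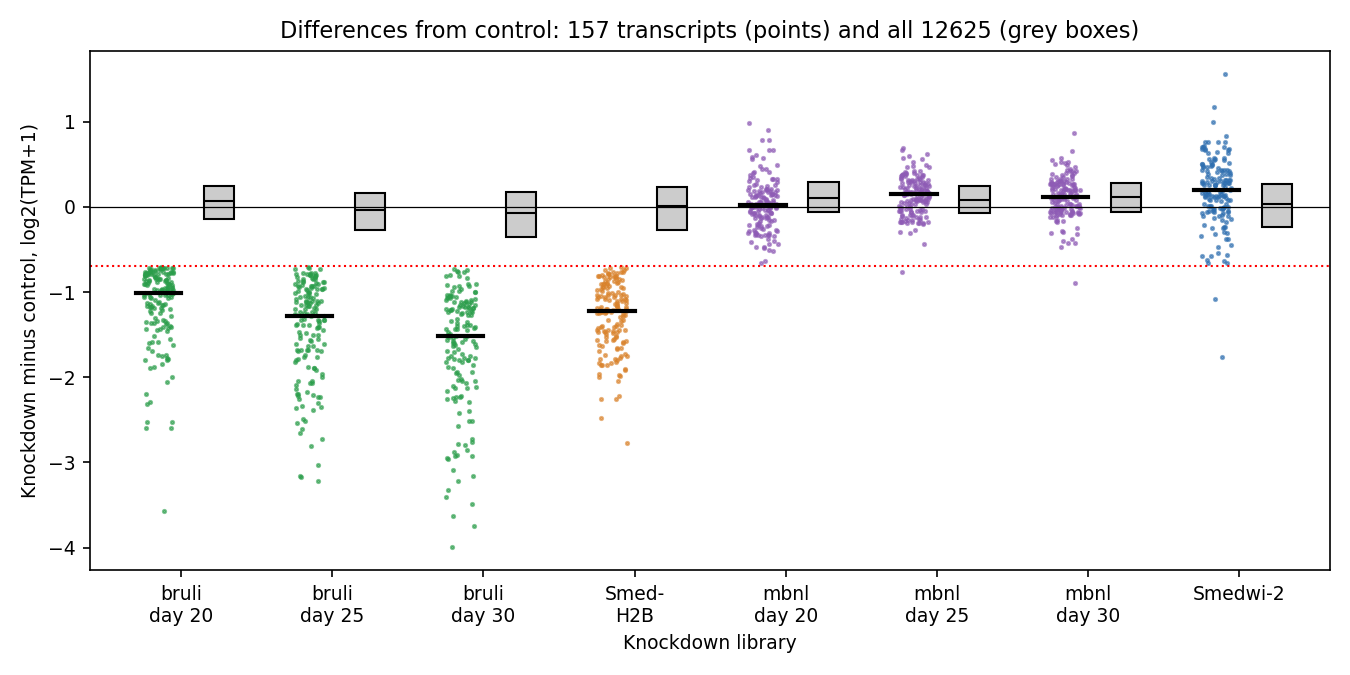
Difference of each knockdown library from control on the log2(TPM+1) scale, for the 157 transcripts (points, bar at their median) and for all 12625 transcripts at the control level (grey boxes, lower to upper quartile with the median); bruli and mbnl libraries are set against control of the same day, the single libraries against the control mean, and the dotted line marks -0.7. All points of the bruli and Smed-H2B libraries lie below the line by the rule, and the median of the 157 was -1.52 at day 30 of bruli and 0.20 after Smedwi-2 knockdown.

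The differences after bruli knockdown were larger at later days. The median of the 157 was -1.01 at day 20, -1.28 at day 25 and -1.52 at day 30, beside 0.07, -0.03 and -0.07 for all 12625 transcripts. From day 20 to day 30 the difference of a transcript changed by a median of -0.41, with -0.13 for all 12625. The value for the 157 was smaller with other settings, between -0.30 and -0.24 with a pseudocount of 5, with quantile normalization or with median centring. The difference was lower at day 30 than at day 20 in 138 of the 157, and lower at each step in 88. These 2 counts were not made over all 12625. There the quartiles of the change from day 20 to day 30 were -0.36 and 0.09, with the median below 0, so most went lower too. These values come from the libraries of the rule and from 1 library a day, and they carry no test.

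The course was not shared by all 157. In 25 transcripts the difference deepened by 1 or more, with medians of -1.15, -2.20 and -2.76 at the 3 days. In 34 it stayed within 0.2, with medians of -0.99, -1.12 and -1.05, and in 7 it was smaller by more than 0.2 at day 30. These counts were not made over all 12625, where the quartiles of the change were -0.36 and 0.09. Each difference is taken from the control library of its day, so a change of control between days enters the course too. Among the 25 was comp12390_c0_seq1, which was at 12.2, 16.9 and 11.4 TPM in control, at 4.17 and 2.84 TPM after bruli knockdown at days 20 and 25, and listed at 0 at day 30. It was at 1.56 TPM after Smed-H2B, 11.8, 14.9 and 8.41 TPM after mbnl and 8.86 TPM after Smedwi-2 knockdown, and was the only one of the 157 listed at 0 in any library. The groups also differed in their Smed-H2B difference, which had a median of -1.72 for the 25 and of -1.04 for the 34, a description within the contrasts of the rule.

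**Figure D4:**
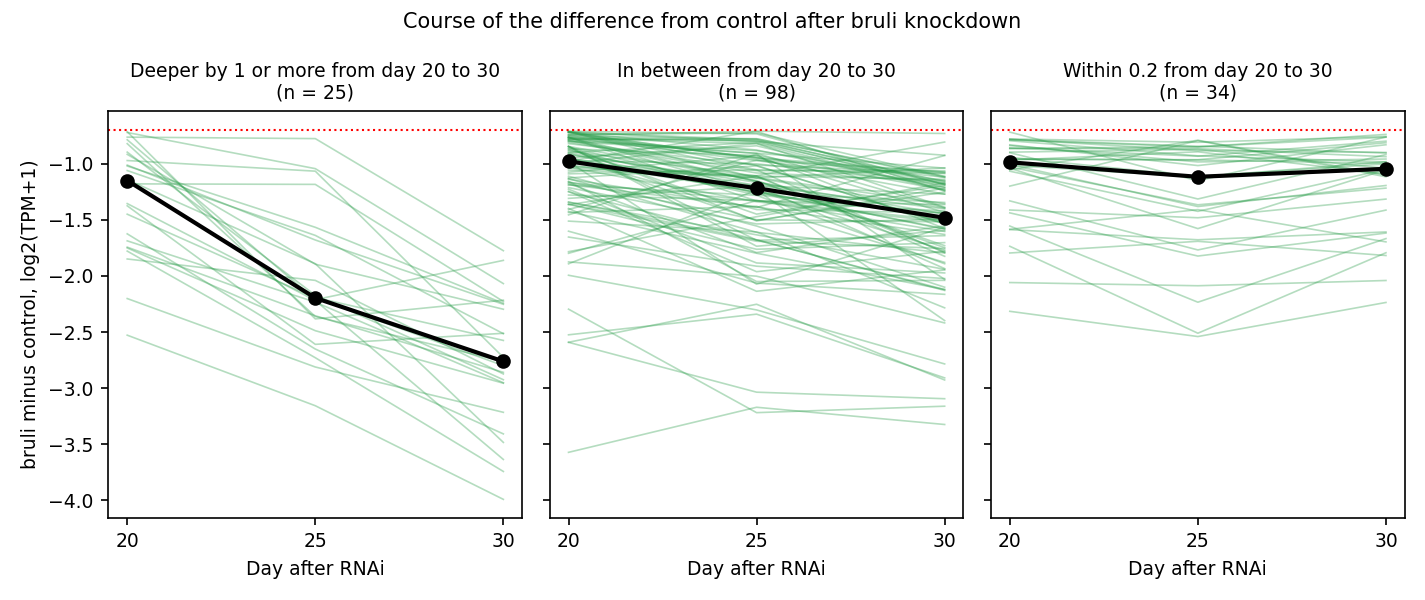
Difference of bruli(RNAi) from control of the same day on the log2(TPM+1) scale at days 20, 25 and 30; thin lines are transcripts, the black line is the median of a panel, and the dotted line marks -0.7. The left panel holds the 25 transcripts that deepened by 1 or more, with a median of -2.76 at day 30, the right panel the 34 that stayed within 0.2, with a median of -1.05, and the middle panel the others.

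Smed-H2B and bruli knockdown both left the 157 low by the rule, so their levels are compared here as a description. The Smed-H2B differences from control ran from -2.77 to -0.70 with a median of -1.22, beside 0.01 for all 12625 transcripts. In 6 transcripts they were at -2 or less. The Smed-H2B library lay within the range of the bruli libraries for 78 of the 157, above all of them for 56 and below all of them for 23. It was below the bruli library of day 20 for 97 transcripts, of day 25 for 56 and of day 30 for 34. The median of Smed-H2B minus bruli was -0.11 at day 20, 0.09 at day 25 and 0.30 at day 30. For single transcripts it ran from -1.35 to 2.35 at day 20. In the median the Smed-H2B level was thus nearest to those of bruli knockdown at days 20 and 25. The day of the Smed-H2B library is not given, however, and its control was the mean of all days.

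**Figure D5:**
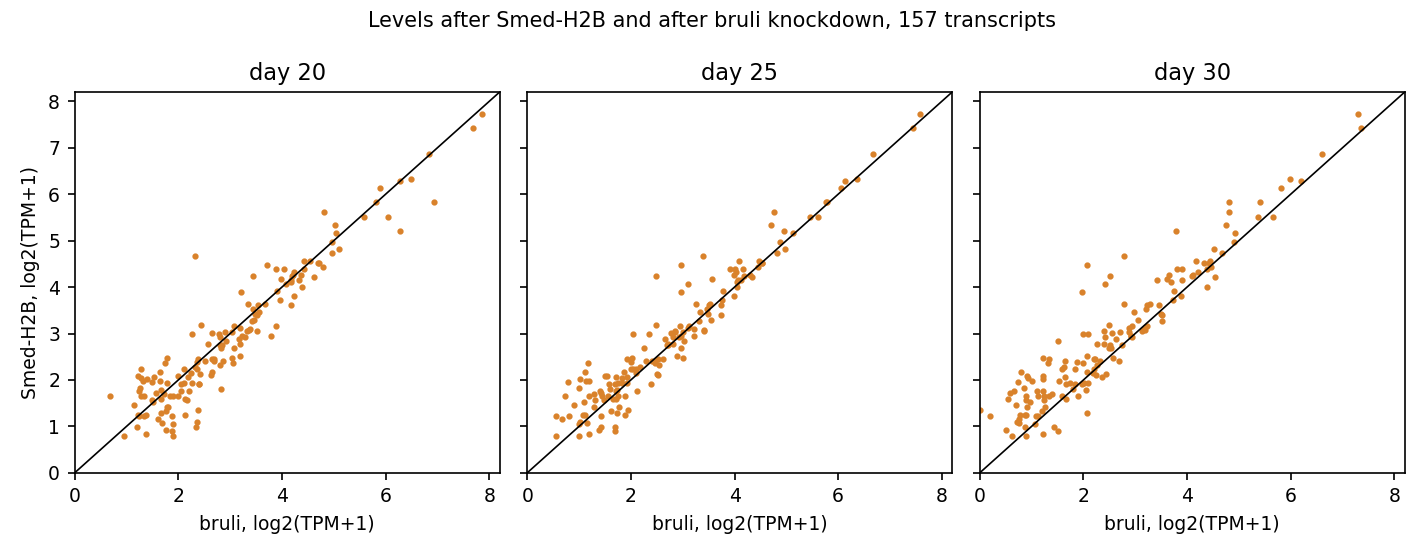
Level after Smed-H2B knockdown against level after bruli knockdown at days 20, 25 and 30, both as log2(TPM+1), for the 157 transcripts (points); the line marks equal levels. At day 20, 97 points lie below the line, and at day 30, 34 do.

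The Smed-H2B difference was smaller where the bruli difference was smaller, with medians of -1.67, -1.25 and -0.90 for the 22, 95 and 40 transcripts grouped above by their mean bruli difference. Both differences were used by the rule and are taken from the same control libraries, which ties them to each other. The medians are therefore a description and no measure of how far the knockdowns agree. An unnamed transcript with a small Smed-H2B and a larger bruli difference, comp16218_c0_seq1, was at 6.97, 7.78 and 7.54 TPM in control and at 4.12 TPM after Smed-H2B knockdown, a difference of -0.72. After bruli knockdown it was at 2.36, 1.25 and 1.49 TPM, all below the Smed-H2B level, and it was at 4.76, 9.82 and 9.09 TPM after mbnl and 8.45 TPM after Smedwi-2 knockdown.

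After mbnl knockdown none of the 157 was lower than control past the test, and 2 were higher. limma was fitted to log2(TPM+1) of 15492 transcripts with group and day, and the Benjamini-Hochberg adjustment ran over all of them, with a threshold of 0.05. Of the 15492, 261 (1.68%) were lower and 667 (4.31%) higher after mbnl knockdown, and the 157 had 0 and 2 (1.27%). At an unadjusted p under 0.05 the 157 had 1 lower and 15 higher, while 5.06% of all transcripts were lower and 19.1% higher. The residual standard deviation of the fit had a median of 0.21 over the 157 and of 0.15 over all tested transcripts. The bruli libraries take part in it, so a bruli difference that deepened with time counts as spread in this test.

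The median log2 fold change of mbnl against control was 0.10 over the 157 and 0.11 over all transcripts tested. It was below 0 in 47 of the 157, but in 92 after centring each library on its median and in 89 after quantile normalization of all libraries. Over all transcripts tested the lower quartile was -0.025, also below 0, and their median went to -0.021 and 0.0026 with those scalings. In 150 of the 157 the mbnl library lay within 0.7 of control at each day. This was not counted over all 12625, whose quartiles at the 3 days lay between -0.07 and 0.29, well within 0.7 too. The control libraries in this comparison are also those of the rule.

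The 2 transcripts that rose were comp2725_c0_seq1 and comp2016_c0_seq1, whose levels were close to each other in most libraries. comp2725_c0_seq1 was at 29.1, 38.1 and 33.8 TPM in control, 43.6, 53.5 and 47.8 TPM after mbnl knockdown and 13.8, 14.2 and 14.0 TPM after bruli knockdown. It was at 19.9 TPM after Smed-H2B and 47.1 TPM after Smedwi-2 knockdown. Its log2 fold change of mbnl against control was 0.51 (standard error 0.09, adjusted p = 0.0164, limma), and it was higher at 3 of 3 days. comp2016_c0_seq1 was at 29.8, 38.1 and 37.0 TPM in control and at 45.9, 55.1 and 47.3 TPM after mbnl knockdown, with 15.4, 15.1 and 13 TPM after bruli, 19.9 TPM after Smed-H2B and 59.7 TPM after Smedwi-2 knockdown. It rose by 0.49 on the log2 scale after mbnl knockdown (standard error 0.11, adjusted p = 0.0310, limma), and was likewise higher at 3 of 3 days. In both, every mbnl library lay above every control library. Whether they share reads was not tested, since no sequence of either was at hand. Over all settings tried, the adjusted p from limma ran from 0.0136 to 0.175 for the former and from 0.0182 to 0.266 for the latter. Both calls were lost without the mbnl library of any 1 day, without all libraries of day 25 or of day 30, or without the control library of day 25, and 1 of the 2 was lost without the control library of day 20 or day 30 or the bruli library of day 25. Without all libraries of day 20, 4 transcripts were higher, these 2 with the SNU13 transcript comp1928_c0_seq1 and comp629_c0_seq1, the last named after its result was seen.

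The bruli and mbnl libraries of the set were apart at every transcript. In all 157 each mbnl library lay above each bruli library and the Smed-H2B library, a pattern that 29.6% of all 12625 transcripts showed. With the mbnl libraries in place of control, 135 of the 157 (86%) met the differences of the rule, and 2.11% of all transcripts did. Bruli and Smed-H2B levels were used by the rule, so these counts are a description.

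Smedwi-2 knockdown, in 1 library without a test, left 143 of the 157 within 0.7 of the control mean. More than 0.7 below it were 2 transcripts (1.27%), where 6.17% of all 12625 were, and more than 0.7 above it were 12 (7.64%), where 4.54% were. The median difference of the 157 was 0.20, beside 0.03 for all, and 111 lay above the control mean and 46 below. With a median above 0 and quartiles of -0.24 and 0.27, most of all 12625 lay above it as well. The control libraries in this comparison are also those of the rule. In 155 of the 157 the Smedwi-2 library was above each bruli library and the Smed-H2B library, as it was in 38.2% of all transcripts.

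The 2 below the threshold were comp14537_c0_seq1 and comp11860_c0_seq1. comp14537_c0_seq1 was at 4.96, 5.46 and 4.11 TPM in control and at 0.709 TPM after Smedwi-2 knockdown, a difference of -1.77. It was at 2.40, 2.05 and 1.30 TPM after bruli knockdown, 1.5 TPM after Smed-H2B and 2.83, 2.80 and 3.74 TPM after mbnl knockdown, so it was below control in every knockdown library. Its mbnl difference of -0.50 (standard error 0.22) was not past the test (adjusted p = 0.195, limma). comp11860_c0_seq1 was at 12.6, 11.7 and 14.6 TPM in control, 5.55 TPM after Smedwi-2, 6.31, 4.53 and 5.48 TPM after bruli and 4.34 TPM after Smed-H2B knockdown. Its mbnl levels of 10.8, 12.9 and 15.5 TPM were near control, so here the Smedwi-2 library sided with bruli and Smed-H2B. With a pseudocount of 0.5 in place of 1, or without the control library of day 25, 4 transcripts were below the threshold, and 3 without the control library of day 20 or of day 30.

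At the other end, comp12899_c0_seq1 was at 7.70, 4.51 and 6.74 TPM in control and at 20.1 TPM after Smedwi-2 knockdown, a difference of 1.56. It was at 1.5, 1.19 and 1.89 TPM after bruli, 2.95 TPM after Smed-H2B and 7.83, 6.12 and 7.70 TPM after mbnl knockdown, where it lay near control. comp11867_c0_seq1 was at 6, 6.48 and 6.39 TPM in control and at 15.5 TPM after Smedwi-2 knockdown, a difference of 1.18, with 10.1, 8.82 and 8.26 TPM after mbnl knockdown, 3.12, 3.36 and 1.16 TPM after bruli and 2.41 TPM after Smed-H2B. All its mbnl libraries lay above all control libraries without passing the test (log2 fold change 0.46, standard error 0.22, adjusted p = 0.231, limma). By mean bruli difference, the median Smedwi-2 difference was 0.42 for the 22 transcripts at -2 or less, with 5 below the control mean. It was 0.21 for the 95 between -2 and -1, with 28 below, and 0.12 for the 40 nearest to control, with 13 below. Of all 157, 29.3% lay below. The groups were made from bruli differences that the rule used, and the control libraries are shared. With 1 Smedwi-2 library, these values are a description and no measure of a link between the knockdowns.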

How the data were processed

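The authors used Flexbar for trimming, filtered out rRNA in silico, aligned what was left against the Dresden transcriptome (Bowtie2 2.1.0) and counted per transcript (HTSeq 0.6.1p1). The submitters' processing notes also name CASAVA 1.8.2. The deposited values are TPM in 1 column per library, each summing to 1000000, and how counts became TPM is not given in the sources used here. TPM keeps no depth.

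Differences were taken on log2(TPM+1), which understates changes of weak transcripts. limma 3.58.1 in R 4.3.3 tested the 15492 transcripts whose mean exceeded 1.5 in the 9 libraries with a day, using group, day and a mean-variance trend, two-sided, adjusted by Benjamini-Hochberg at 0.05 (4 residual and 5.26 prior degrees of freedom). Day is a block because the labels give the groups the same days; same-day control and mbnl libraries correlated at 0.19, 0.22 and -0.01 after removal of group means. Bruli and Smed-H2B differences chose the transcripts and were not tested. Smed-H2B and Smedwi-2 have 1 library each. How small an mbnl change limma could find among the 157 was not tested. Their residual standard deviation had a median of 0.21, above the 0.15 of all tested transcripts.

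The transcripts, lists and naming rule were chosen with earlier results of these data known. Named are all annotated members and, of the unnamed, at most 2 at each end of the control level (highest only) and of each difference, and 2 on each side of each threshold. Annotations are the best human hits and KEGG numbers in the study's tables; gene names for KEGG numbers are background knowledge. The counts for 12 lists are given. Alternatives were pseudocounts of 0.5 and 5, other floors, thresholds, filters and scalings, no day block, no trend, only the groups compared, and each library or day left out. Figures were drawn with matplotlib 3.10.9 in Python 3.11.15.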

Additional observations from a re-analysis of the deposited data

How the results depend on the processing

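The number of transcripts meeting the rule was 157, and became 65 with a pseudocount of 5, 96 with a floor of 3.5, 372 with a threshold of -0.5 and 62 with one of -1. Leaving out a day or a bruli library gave 170 to 362, the highest without all libraries of day 20 (317 without only its bruli library). None of the 157 was lower after mbnl knockdown in limma in any of 22 settings. The 2 higher became 0 with a pseudocount of 5, without a filter and without a trend, 1 with quantile normalization of all libraries and with median centring, and 0 to 4 with a library or day left out. Without the replicate block, that is with the same days left unpaired, 1 was higher. The median mbnl difference of 0.10 was -0.028 with quantile normalization of all libraries and -0.031 with median centring, where the median of all transcripts tested went from 0.11 to 0.0026 and -0.021. The transcripts below the Smedwi-2 threshold numbered 4 with a pseudocount of 0.5, and 3 to 4 with a control library left out. The median Smedwi-2 difference of 0.20 was 0.17 with a pseudocount of 5 and 0.15 with quantile normalization of all libraries. The median change of the bruli difference from day 20 to day 30 of -0.41 was -0.26 with a pseudocount of 5, -0.30 with quantile normalization of the controls, -0.27 with that of all libraries and -0.24 with median centring. Calls over all transcripts ranged from 22 to 559 lower and 21 to 806 higher. The cause of these shifts was not tested. Read depth, unknown in TPM, limits the 59 transcripts under 10 TPM most.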
